A study of Homo sapiens with 6 samples.

Results

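Glycolysis turns glucose into pyruvate, and the genes described here cover that route from the cell surface to lactate. They encode glucose transporters, the enzymes of glycolysis, lactate dehydrogenases, monocarboxylate transporters and several enzymes and carriers at its branch points. The group was defined by 35 gene symbols, and a row of the count table belonged to it when its symbol equalled one of them. Of the 35 symbols, 34 were found among the 30270 genes of the table, and HKDC1, a hexokinase-domain gene, was not analysed here. All 34 passed the limit on low counts. The rule itself uses no measured value, although the symbols were chosen with earlier results of these data known.

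RNA came from HEK 293T, an embryonic kidney line of human origin that carries the SV40 large T antigen. The labels gave 3 wild-type libraries (WT) and 3 libraries of a TENT3A/B knockout, called ΔTUT4/7 in the study after the other names of the same uridylyltransferases, enzymes that add uridines to RNA 3′ ends. Both groups were untreated, grew in DMEM with fetal bovine serum and antibiotics, and were sequenced as total RNA after depletion of ribosomal RNA. The knockout line came from another laboratory and the labels name 1 genotype for it, so each group stands for 1 line, and a difference between the lines cannot be told apart from the effect of the deletion.

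Library totals lay between 18757228 and 33148937 estimated counts. TUT4 stood at 206 to 216 CPM, read counts scaled to library size, in WT and at 882 to 920 CPM in the libraries labelled ΔTUT4/7 (log2 fold change 2.10 ± 0.04, SE), which goes against the label at the level of RNA. TUT7 fell by 1.25 ± 0.06 on the log2 scale. Counts per gene do not show which bases of either gene were altered, so the name of this group is used as a label only. Of the 8 markers of the line, 2 rose and 6 fell at an adjusted p under 0.05. Among them, vimentin (VIM) rose by 1.33 ± 0.04 on the log2 scale. The neurofilament gene NEFM went from 969 CPM in WT to 0.0170 CPM in ΔTUT4/7. The 8 markers together summed to 2021 to 2190 CPM in WT and to 1461 to 1486 CPM in ΔTUT4/7. Leukocyte markers summed to at most 3.38 CPM and hepatocyte markers to at most 0.705 CPM in any library, with PTPRC, CD3E, APOA1, TTR and SERPINA1 not counted at all. The fibroblast and endothelial list, of which COL1A1 held nearly all counts, summed to 20.6 to 23.7 CPM in WT and to 6.52 to 8.70 CPM in ΔTUT4/7, and its part in the results below was not tested.

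In glycolysis, hexokinase traps glucose as its phosphate, phosphofructokinase commits it to breakdown, aldolase splits the sugar, and the later enzymes pass the fragments through GAPDH, phosphoglycerate kinase, mutase and enolase to pyruvate kinase. Pyruvate is then reduced to lactate, which regenerates the NAD+ that GAPDH needs, or enters mitochondria through the pyruvate carrier. Pyruvate dehydrogenase kinases hold back its oxidation there. Most steps have several isozymes from separate genes, and many of these genes are known targets of the hypoxia-inducible factors and of MYC.

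These factors recognise short motifs, and the bases just before the start of transcription are therefore shown for 4 members on either side of the comparison. LDHA and PGK1 rose in the libraries labelled ΔTUT4/7, and SLC16A3 and PGM2 fell. Each line gives the 250 bases before a RefSeq start on GRCh38.p14, read 5′ to 3′ on the plus strand, which is the coding strand of all 4 genes. Capitals mark ACGTG, a form of the core of the hypoxia response element, on either strand, which includes the E-box CACGTG. The other form of that core, GCGTG, was neither marked nor counted. The windows are chr11:18394313-18394562 (LDHA), chrX:78103998-78104247 (PGK1), chr17:82228792-82229041 (SLC16A3) and chr4:37826436-37826685 (PGM2). In the GENCODE annotation each ends at the base before the start of the canonical transcript. The PGK1 and SLC16A3 windows held no annotated exon base, the LDHA window held 3 and the PGM2 window 26.
LDHA: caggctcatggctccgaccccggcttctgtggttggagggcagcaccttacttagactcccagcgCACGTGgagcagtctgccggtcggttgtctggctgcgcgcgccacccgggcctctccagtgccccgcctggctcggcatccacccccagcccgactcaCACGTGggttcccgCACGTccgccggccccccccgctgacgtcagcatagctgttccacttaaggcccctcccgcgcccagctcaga
PGK1: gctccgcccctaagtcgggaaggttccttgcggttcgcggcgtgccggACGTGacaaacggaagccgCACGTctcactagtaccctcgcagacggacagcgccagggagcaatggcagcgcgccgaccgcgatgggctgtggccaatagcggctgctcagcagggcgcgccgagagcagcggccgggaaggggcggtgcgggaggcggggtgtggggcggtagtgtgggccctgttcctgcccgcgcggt
SLC16A3: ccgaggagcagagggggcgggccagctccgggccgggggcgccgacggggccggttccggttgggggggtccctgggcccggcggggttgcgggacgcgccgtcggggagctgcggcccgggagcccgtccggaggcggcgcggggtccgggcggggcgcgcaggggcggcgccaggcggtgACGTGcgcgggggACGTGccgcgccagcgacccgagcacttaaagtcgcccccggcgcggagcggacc
PGM2: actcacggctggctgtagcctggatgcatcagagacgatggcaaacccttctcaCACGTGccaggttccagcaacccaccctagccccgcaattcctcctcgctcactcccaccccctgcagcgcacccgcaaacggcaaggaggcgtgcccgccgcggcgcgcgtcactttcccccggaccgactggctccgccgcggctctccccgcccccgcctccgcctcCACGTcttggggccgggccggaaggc

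The LDHA window held 3 marked sites, 2 of them E-boxes, while PGK1, SLC16A3 and PGM2 held 2 each. A RefSeq window was given for 31 members, and for 25 of these it ended at the canonical start. Among those 25, ACGTG was found on either strand in 13 (52.0%), against 18.5% of 35116 windows of the same length over all genes and 22.3% of the 15403 windows of genes whose mean count was at least 50. CACGTG was found in 5 of 25, against 6.34% and 8.14%. Each of these members gave only the window at its canonical start, while the windows over all genes include other starts of the same gene. The shares were therefore not taken on like windows. By direction, ACGTG stood in 7 of the 16 windows of members that rose and in 5 of the 6 windows of members that fell. The letters were thus present on both sides of the comparison, and a match is not a measured binding site.

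Most of the group was higher in ΔTUT4/7. In RNA from whole cultures, a change in every cell and a change in the share of cells that express a gene cannot be told apart. At an adjusted p under 0.05, 30 of the 34 members changed in either direction, as did 57.7% of the 23952 genes tested. The rise was called for 24 members (70.6%), where 28.6% of those genes rose. The fall was called for 6 members (17.6%), where 29.0% of all genes fell. Members are well expressed, 33 of them having a mean count of at least 50, and of all genes at that level 39.2% rose and 31.7% fell. The median log2 fold change of the members was 0.49, beside −0.02 over all genes tested and 0.06 over those whose mean count was at least 50. Changes were mostly below 2-fold. A rise of 2-fold or more was called for HK2, PFKP, PGAM1 and ENO2 (4 of 34, against 5.90% of all genes), and such a fall for SLC16A3 alone (1 of 34, against 12.4%). When only the 15575 genes with a mean count of at least 50 were fitted, 722 were called 2-fold higher and 1440 lower. Of the 33 members in that fit, 3 were called 2-fold higher and 0 lower.

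The groups did not overlap in 23 members that were higher and in 6 that were lower, where 30.9% and 31.8% of all genes were apart in these directions. The share among genes of like counts was not taken. Members took 0.665% ± 0.0283 (SD, n = 3) of all counts in WT and 0.997% ± 0.00962 in ΔTUT4/7. From phosphoglucose isomerase to lactate dehydrogenase, the member with the highest level per kilobase at each step rose. The members that fell were ADPGK, ALDOC, SLC16A3, PDK1, PDK3 and PGM2, of which ADPGK had the highest level per kilobase in WT among the genes of hexose phosphorylation, at 31.8 CPM, with HK1 at 28.4 CPM. The remaining 4, PFKFB2, ENO3, PDK2 and MPC1, did not pass the test.

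**Figure D1:**
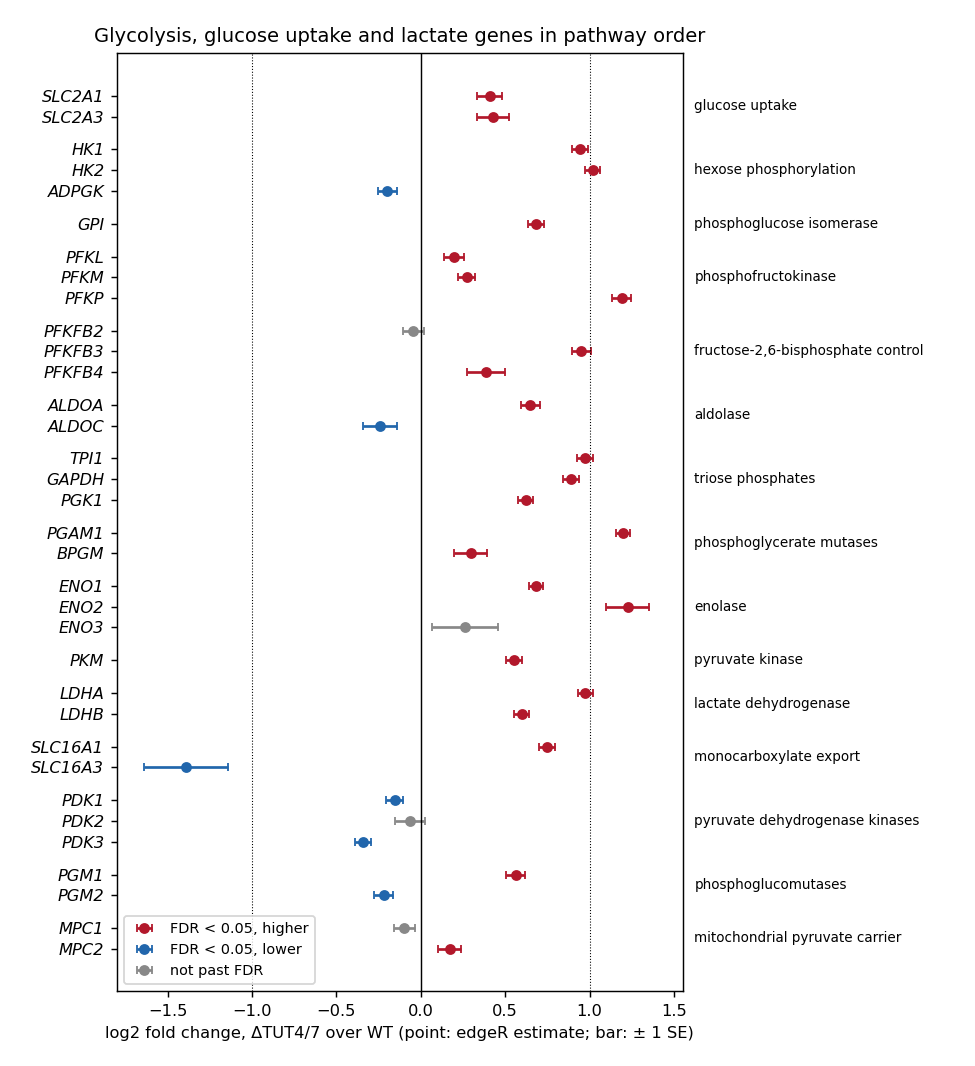
Log2 fold change of each of the 34 members (horizontal axis) in pathway order, with points for the edgeR estimate and bars for 1 SE, coloured by the call. The 24 called higher lie between 0.17 (MPC2) and 1.22 (ENO2), and SLC16A3 at −1.39 lies far from the other members that fell.

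In what follows, rises and falls are log2 fold changes ± SE of ΔTUT4/7 over WT, and CPM are listed in replicate order. Glucose enters through facilitative transporters, and the group holds SLC2A1 and SLC2A3. SLC2A1 (GLUT1) stood at 38.6, 32.0 and 32.4 CPM in WT and at 44.81, 47.01 and 44.18 CPM in ΔTUT4/7 (log2 fold change 0.41 ± 0.07, adjusted p 4.6e-05). SLC2A3 (GLUT3), the high-affinity neuronal type, rose by 0.43 ± 0.09, from a mean of 11.4 to 15.4 CPM. For both, every library labelled ΔTUT4/7 lay above every WT library. Per kilobase of the canonical transcript, the level of SLC2A1 was 10.1 CPM in WT and that of SLC2A3 2.99 CPM.

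Both hexokinases rose. HK1, the housekeeping form bound to mitochondria, was at 102.5, 101.8 and 103.1 CPM in WT and at 199, 187 and 204 CPM in ΔTUT4/7. HK2, the regulated form of muscle and many tumours, was at 90.3, 84.9 and 87.9 CPM in WT and at 174, 179 and 180 CPM in ΔTUT4/7. The libraries of each gene were tightly grouped, with log2 fold changes of 0.94 ± 0.05 for HK1 and 1.02 ± 0.05 for HK2. HK2 lay just past 2-fold and ranged from 0.89 to 1.05 over the alternative settings. ADPGK, which phosphorylates glucose with ADP at the endoplasmic reticulum, fell by 0.20 ± 0.06, from 83.0 to 72.5 CPM. Its libraries were at 76.9, 89.1 and 83.0 CPM in WT and at 71.2, 73.0 and 73.2 CPM in ΔTUT4/7. GPI, which isomerises glucose phosphate, was at 252, 222 and 240 CPM in WT and at 382, 375 and 389 CPM in ΔTUT4/7, a rise of 0.68 ± 0.05.

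Of the 3 phosphofructokinase subunits, the platelet form had the largest estimate. PFKP was at 70.2, 69.0 and 81.5 CPM in WT and at 166, 170 and 169 CPM in ΔTUT4/7 (log2 fold change 1.19 ± 0.06, adjusted p 3.3e-13). PFKM, the muscle form, was at 110, 108 and 104 CPM in WT and at 138, 123 and 127 CPM in ΔTUT4/7, a rise of 0.27 ± 0.05. PFKL, the liver form, rose by 0.20 ± 0.06, from 66.1 to 75.4 CPM, a call that was lost with scaling by library size alone (log2 fold change between 0.04 and 0.25 over all alternatives). Per kilobase, PFKM was the most abundant subunit in WT at 34.7 CPM and PFKP in ΔTUT4/7 at 64.0 CPM.

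The PFKFB enzymes make and remove the sugar bisphosphate that activates phosphofructokinase. PFKFB3, the form with the strongest kinase activity, was at 40.7, 38.3 and 42.3 CPM in WT and at 76.5, 79.1 and 79.1 CPM in ΔTUT4/7 (log2 fold change 0.95 ± 0.06). PFKFB4 rose by 0.39 ± 0.11 at a lower level, from 8.13 to 10.6 CPM. PFKFB2, the heart form, had means of 42.5 and 41.2 CPM with overlapping groups and did not pass the test (log2 fold change −0.04 ± 0.06).

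In the middle of the pathway the major forms rose together. ALDOA, the main aldolase, was at 383, 315 and 335 CPM in WT and at 551, 535 and 534 CPM in ΔTUT4/7, a rise of 0.65 ± 0.06. ALDOC, the brain form, fell by 0.24 ± 0.10, from 13.4 to 11.3 CPM, with an adjusted p of 0.045 that did not hold when any library other than the third of ΔTUT4/7 was left out, nor with DESeq2 or without the count limit. TPI1, which interconverts the triose phosphates, rose by 0.97 ± 0.05, from a mean of 332 to 651 CPM. PGK1, the first enzyme here to make ATP, rose by 0.62 ± 0.05, from 296 to 454 CPM.

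GAPDH (chr12:6534512-6538374 in hg38) oxidises glyceraldehyde phosphate and is a common reference gene. It stood at 1058, 957 and 935 CPM in WT and at 1851, 1837 and 1779 CPM in ΔTUT4/7. All libraries labelled ΔTUT4/7 lay above all WT libraries, and the fitted change was 1.85-fold (log2 fold change 0.89 ± 0.05, adjusted p 1.0e-12). GAPDH alone took 0.102% ± 0.00767 of all counts in WT and 0.175% ± 0.00386 in ΔTUT4/7 (SD, n = 3). Only 8.49% of all genes tested had a larger positive change than GAPDH, and so did 8 of the other 33 members. Per kilobase GAPDH was the most abundant member in both groups, at 765 CPM in WT and 1418 CPM in ΔTUT4/7.

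Phosphoglycerate mutase showed the change with the smallest p in the group. PGAM1 was at 166, 169 and 163 CPM in WT and at 378, 378 and 386 CPM in ΔTUT4/7 (log2 fold change 1.20 ± 0.04, adjusted p 1.1e-15). BPGM, which makes the bisphosphoglycerate that loosens oxygen from haemoglobin, passed the test at 0.29 ± 0.10, but its groups overlapped, as the third ΔTUT4/7 library, at 23.9 CPM, lay below the highest WT library, at 25.4 CPM. The call was lost in 9 of 18 alternatives, among them those without the first or the second library of either group.

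Enolase makes phosphoenolpyruvate, and both of its common forms rose. ENO1, the general form, was at 923, 885 and 859 CPM in WT and at 1438, 1405 and 1431 CPM in ΔTUT4/7, a rise of 0.68 ± 0.04. ENO2, the neuronal form, was at 5.75, 5.81 and 4.21 CPM in WT and at 12.2, 11.7 and 12.7 CPM in ΔTUT4/7, the largest log2 fold change of the group at 1.22 ± 0.13. ENO2 remained a minor form, at 0.456% of the summed level per kilobase of ENO1 and ENO2 in WT and 0.659% in ΔTUT4/7. ENO3, the muscle form, had means of 3.02 and 3.54 CPM with overlapping groups and did not pass the test. PKM, pyruvate kinase, was at 599, 538 and 549 CPM in WT and at 833, 816 and 821 CPM in ΔTUT4/7, a rise of 0.55 ± 0.05. Its splice forms are summed in a count per gene.

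**Figure D2:**
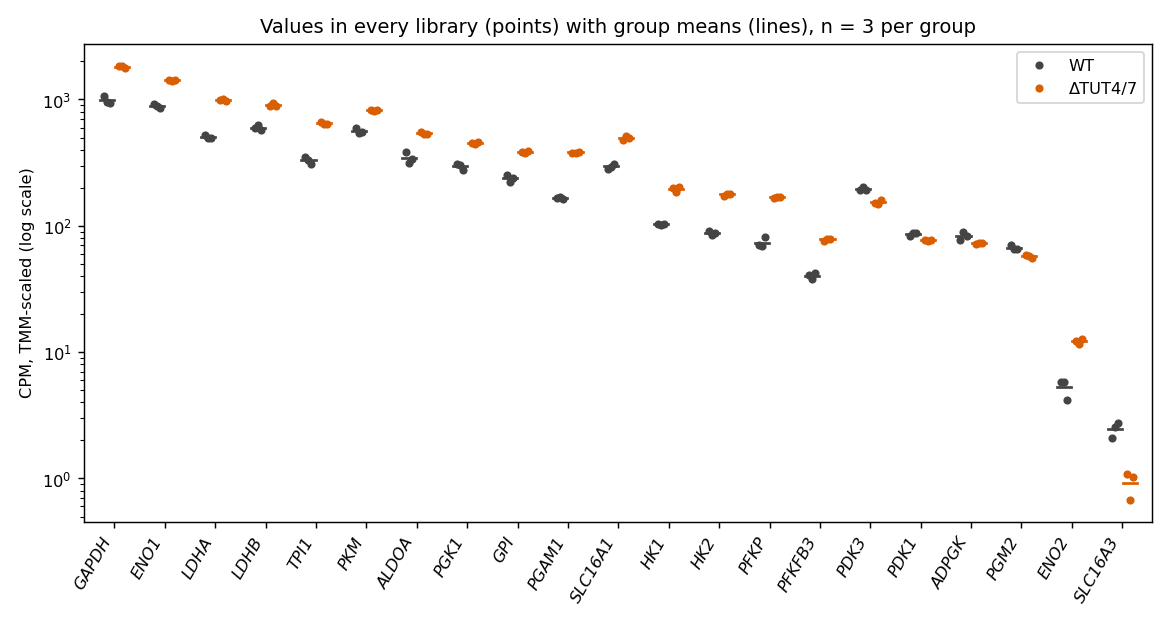
CPM in every library (points, log axis) for 21 members, with WT in grey, ΔTUT4/7 in orange and lines for the means of 3 libraries. The abundant enzymes from GAPDH to PFKFB3 are higher in every ΔTUT4/7 library, and PDK3, PDK1, ADPGK, PGM2 and SLC16A3 are lower.

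Lactate dehydrogenase is a tetramer of LDHA and LDHB subunits, of which LDHA is known for favouring lactate. LDHA rose by 0.97 ± 0.04, from 505 ± 17.9 to 992 ± 22.8 CPM (SD, n = 3), with an adjusted p of 4.8e-14. LDHB was at 596, 629 and 573 CPM in WT and at 895, 939 and 886 CPM in ΔTUT4/7, a smaller rise of 0.60 ± 0.05. Per kilobase of the canonical transcript, LDHB was the more abundant subunit, at 460 CPM in WT and 696 CPM in ΔTUT4/7, where LDHA reached 443 CPM. Without division by length the order in ΔTUT4/7 was reversed, with LDHA at 992 CPM and LDHB at 907 CPM.

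Lactate leaves the cell through monocarboxylate transporters. SLC16A1 (MCT1) was at 283, 294 and 309 CPM in WT and at 478, 517 and 494 CPM in ΔTUT4/7, a rise of 0.75 ± 0.05. SLC16A3 (MCT4), the transporter of strongly glycolytic cells, moved the other way, from 2.09, 2.54 and 2.77 CPM in WT to 1.09, 0.670 and 1.02 CPM in ΔTUT4/7. The fall was called at a mean of only 43.3 counts (log2 fold change −1.39 ± 0.25, adjusted p 5.6e-05). Of its canonical exon bases, 18.5% lie under CSNK1D on the opposite strand, which had far more counts, and since counting by strand is not stated, reads of the pair cannot be told apart there.

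At the branch points the changes went both ways, from −0.34 for PDK3 to 0.56 for PGM1. PDK3, which phosphorylates and so inactivates pyruvate dehydrogenase, was at 191, 204 and 192 CPM in WT and at 152, 148 and 161 CPM in ΔTUT4/7 (log2 fold change −0.34 ± 0.05, adjusted p 1.9e-06). PDK1 fell by 0.16 ± 0.05, from 85.9 to 77.1 CPM, and PDK2 did not pass the test with means of 16.74 and 15.98 CPM. The PDK1 call was lost, at −0.0043, once a GC content and length offset was applied. PDK2 shares 62.8% of its canonical exon bases with SAMD14 on the opposite strand.

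Of the phosphoglucomutases, which link glucose phosphate to glycogen, PGM1 was at 51.0, 50.3 and 49.1 CPM in WT and at 70.6, 76.0 and 75.5 CPM in ΔTUT4/7, a rise of 0.56 ± 0.05. PGM2, which acts mainly on pentose phosphates, fell by 0.22 ± 0.06, from 67.2 to 57.6 CPM. MPC1, a subunit of the mitochondrial pyruvate carrier, was at 40.1, 38.0 and 38.8 CPM in WT and at 35.7, 38.4 and 35.1 CPM in ΔTUT4/7, overlapping groups that did not pass the test. Its partner MPC2 rose by 0.17 ± 0.07, from 30.4 to 34.3 CPM, with an adjusted p of 0.038 that was lost in 10 of 18 alternatives. PGM1 and MPC2 also overlap genes on the opposite strand, ITGB3BP over 8.43% and DCAF6 over 8.37% of their canonical exon bases, and both of those genes had more counts than the member.

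Related genes were compared inside each library, as the log2 ratio of their levels per kilobase, which does not depend on scaling between libraries. Of 11 pairs, 8 did not overlap between the groups, in data where 30.9% of single genes were apart and higher and 31.8% apart and lower. The share of other gene pairs that were apart was not taken, so the count of 8 is given as a description only. With 3 libraries against 3 the smallest 2-sided exact permutation p is 0.1, which all 8 pairs had, with an adjusted p of 0.138 over the pairs, so no pair can pass 0.05. LDHB to LDHA went from 1.03 ± 0.08 (SD) to 0.65 ± 0.01, that is, the LDHB share of both fell from 67.1% to 61.1%. PFKP to PFKL went from 0.30 ± 0.19 to 1.30 ± 0.09, and the share of PFKP in this pair from 55.2% to 71.2%. The gene named first lost ground for ALDOC to ALDOA, where the difference was −0.90, for SLC16A3 to SLC16A1 at −2.17 and for PGM2 to PGM1 at −0.78. It gained for ENO2 to ENO1 at 0.55 and for MPC2 to MPC1 at 0.27, and PDK1 to PDK3 differed by 0.19. HK2 to HK1, PFKM to PFKL and SLC2A3 to SLC2A1 had overlapping groups, with differences of 0.08, 0.08 and 0.02.

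**Figure D3:**
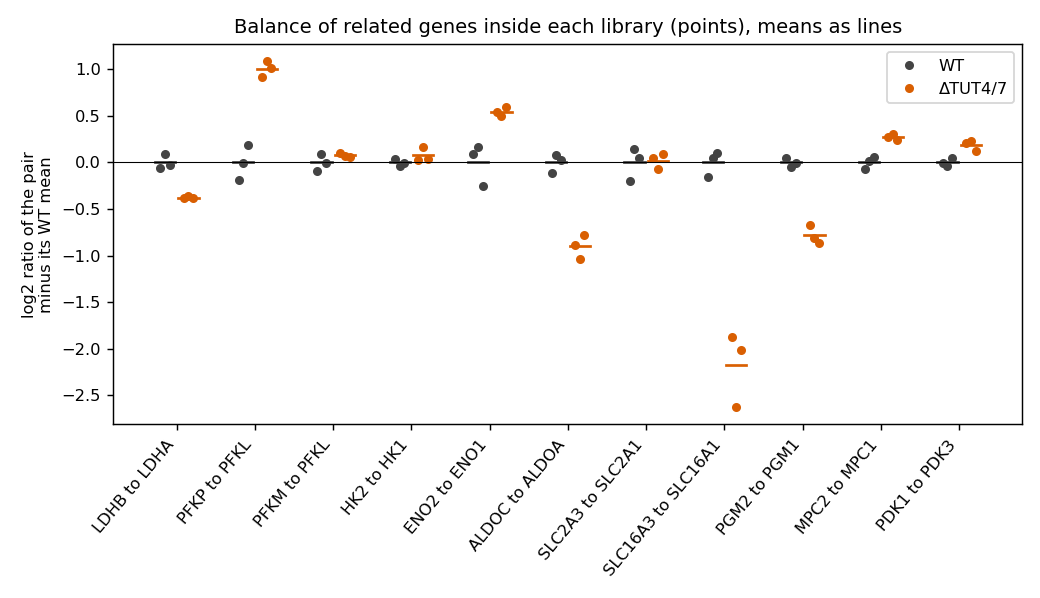
Log2 ratio of 11 pairs of related genes in each library, set to 0 at the WT mean (vertical axis), with points for libraries and lines for means. PFKP gained on PFKL by 1.00, while SLC16A3 lost 2.17 against SLC16A1 and LDHB lost 0.38 against LDHA.

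Fold changes in these libraries varied with chromosomal position, so each member was set beside its 20 nearest genes whose mean count was at least 50. The neighbours' median lay between −0.66 and 0.62 for the 34 members, and the median of member minus neighbours was 0.37. Of the 24 members that rose, 21 lay above their neighbours, the others being PFKL, PFKM and PFKFB4. Genes picked by their own rise tend to lie above their neighbours, and the share among all genes that rose was not taken. PKM rose by 0.55 on a stretch of chromosome 15 where 17 of 20 neighbours fell and the median was −0.64. ENO1 rose by 0.68 beside a median of −0.38. LDHA and HK2 rose by 0.97 and 1.02 where the neighbours' medians were −0.01 and 0.12.

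The 4 members on chromosome 10, HK1, PFKP, PFKFB3 and PGAM1, rose by 0.94 to 1.20, and this is a chromosome where the other 595 genes at that count level had a median of 0.38. Their nearest neighbours had medians of 0.60, 0.59, 0.61 and 0.38, which leaves 0.34, 0.60, 0.35 and 0.82. GAPDH, TPI1 and ENO2 lie close together on chromosome 12, whose other genes had a median of 0.35, and stood 0.71, 0.60 and 0.86 above their neighbours. Of the members that fell, ADPGK and PGM2 lay among neighbours with medians of −0.60 and −0.53, above which they stood by 0.40 and 0.31. ALDOC, SLC16A3, PDK1 and PDK3 lay below their neighbours. MPC1, with 18 of 20 neighbours lower at a median of −0.66, stood 0.56 above them. The part of position in each change was not tested.

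**Figure D4:**
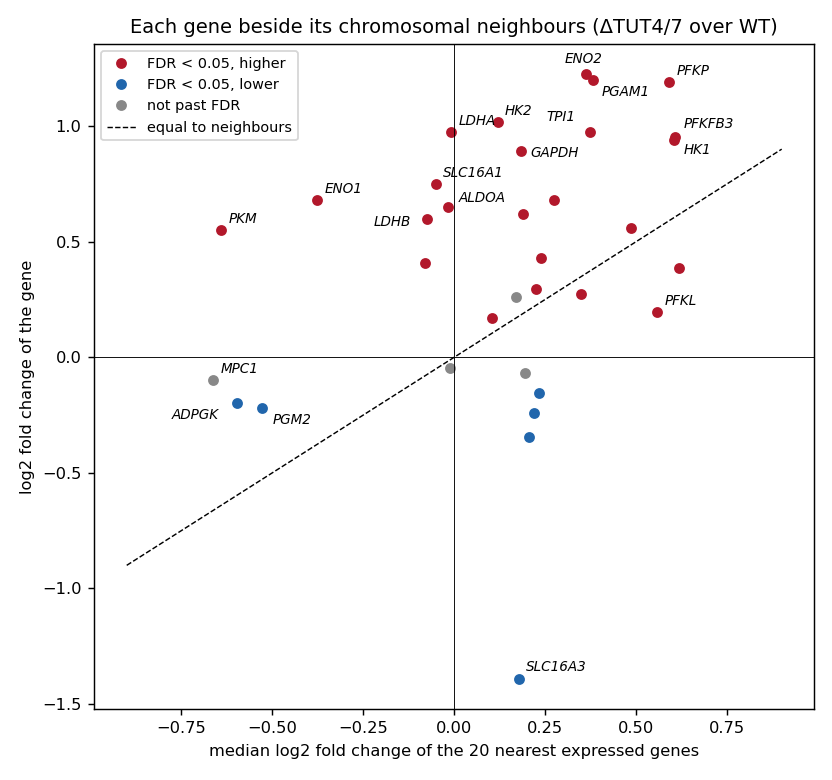
Log2 fold change of each member (vertical axis) against the median of its 20 nearest expressed genes (horizontal axis), with a dashed line where both are equal. With the 20 nearest genes, PKM, ENO1 and LDHA lie furthest above the line, by 1.19, 1.06 and 0.98, and SLC16A3 furthest below it, by 1.57. With the 10 nearest, ENO1 and LDHA lie at 1.30 and 1.19, PKM at 1.16 and SLC16A3 at −0.94.

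Glycolytic genes have many processed pseudogenes, and 67 of these, belonging to 11 members, had rows of their own. Their summed counts exceeded 5% of the parent for SLC2A3 (21.0%), TPI1 (17.9%), GAPDH (6.004%), ENO1 (5.81%) and LDHA (5.17%). The largest single contributors were SLC2A3P4, TPI1P1, GAPDHP1, ENO1P1 and LDHAP4. Reads can be split between such copies, so the levels of these genes are uncertain by about these shares. When pseudogene counts were added to the parent, no log2 fold change moved by more than 0.0511 and no call among the members changed.

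The pathways connected to glycolysis were read from the same fit, in which 28.6% of all genes rose and 29.0% fell, or 39.2% and 31.7% at a mean count of at least 50. The shares in the glycogen, glucose-sensing and hypoxia-inducible factor lists lay near these. In the pentose phosphate pathway, which draws glucose phosphate into NADPH and ribose, 9 of 14 genes rose and 1 fell, with a median log2 fold change of 0.46. PRPS2, which activates ribose phosphate for nucleotide synthesis, rose by 0.78 ± 0.05, and H6PD, the form of the entry enzyme in the endoplasmic reticulum, fell by 1.21 ± 0.06. Of the pyruvate dehydrogenase and citrate cycle genes, 15 of 23 rose and 5 fell (median 0.24). SDHA, the flavoprotein of succinate dehydrogenase, rose by 0.96 ± 0.04, while mitochondrial IDH2 and the GTP-forming succinate ligase subunit SUCLG2 fell by 1.67 ± 0.07 and 1.34 ± 0.07. In the NADH shuttles 4 of 8 genes rose and 1 fell, with GOT2 at 0.60 ± 0.05 and the aspartate-glutamate carrier SLC25A13 at 0.57 ± 0.06.

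Other branches take carbon out of glycolysis or feed it back. In the serine and hexosamine branches 3 of 12 genes rose and 7 fell (median −0.28). PHGDH, which starts serine synthesis, fell by 0.79 ± 0.05, from 522 to 302 CPM, and GNPNAT1 of the hexosamine route rose by 0.70 ± 0.05. Of 16 glycogen genes 6 rose and 5 fell, with liver phosphorylase PYGL up by 0.96 ± 0.04, the branching enzyme GBE1 down by 1.78 ± 0.11 on the log2 scale and the glycogen phosphatase EPM2A at −1.06 ± 0.11. In gluconeogenesis and pyruvate anaplerosis 3 of 7 rose and 2 fell. Mitochondrial PCK2 fell by 2.14 ± 0.09, from 85.2 to 19.2 CPM, malic enzyme ME2 rose by 0.68 ± 0.05, and PCK1 was at 1.17 CPM in WT and 0.0588 CPM in ΔTUT4/7. Among other isozymes and partners 9 of 25 rose and 11 fell. The glucose transporter SLC2A12 fell by 2.75 ± 0.10, from 42.1 CPM in WT to 6.13 CPM in ΔTUT4/7. Also lower was the transporter SLC2A10 at −2.66 ± 0.17, from 8.11 to 1.25 CPM. LDHD at −2.76 ± 0.39 and ENO4 at −1.81 ± 0.35 were lower at low levels. Their means went from 1.28 to 0.189 CPM and from 1.56 to 0.406 CPM.

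Regulators and other targets were read in the same way. Of 9 hypoxia-inducible factor genes and their controls 4 rose and 2 fell. EPAS1 (HIF-2α) fell by 1.70 ± 0.07, from 41.4 to 12.8 CPM, and HIF1AN, the factor-inhibiting hydroxylase, rose by 0.29 ± 0.05. HIF1A, named here after its values were seen, rose by 0.16 ± 0.05, from 130 to 146 CPM. Of the hypoxia targets outside glycolysis 4 of 19 rose and 10 fell (median −0.20). Those that fell included NDRG1 at −1.32 ± 0.07, STC2 at −0.92 ± 0.05 and PPFIA4 at −1.03 ± 0.11. The 4 that rose are named here after their values were seen. They were LOX at 0.79 ± 0.08, MXI1 at 0.66 ± 0.06, P4HA1 at 0.62 ± 0.06 and BNIP3 at 0.42 ± 0.06. Of 11 glucose-sensing genes 5 rose and 3 fell, with the AMPK catalytic subunit PRKAA2 at 0.84 ± 0.05 and ARRDC4, a thioredoxin-interacting protein relative induced by glucose, at −1.40 ± 0.06. No test compared these lists with each other or with the members.

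**Figure D5:**
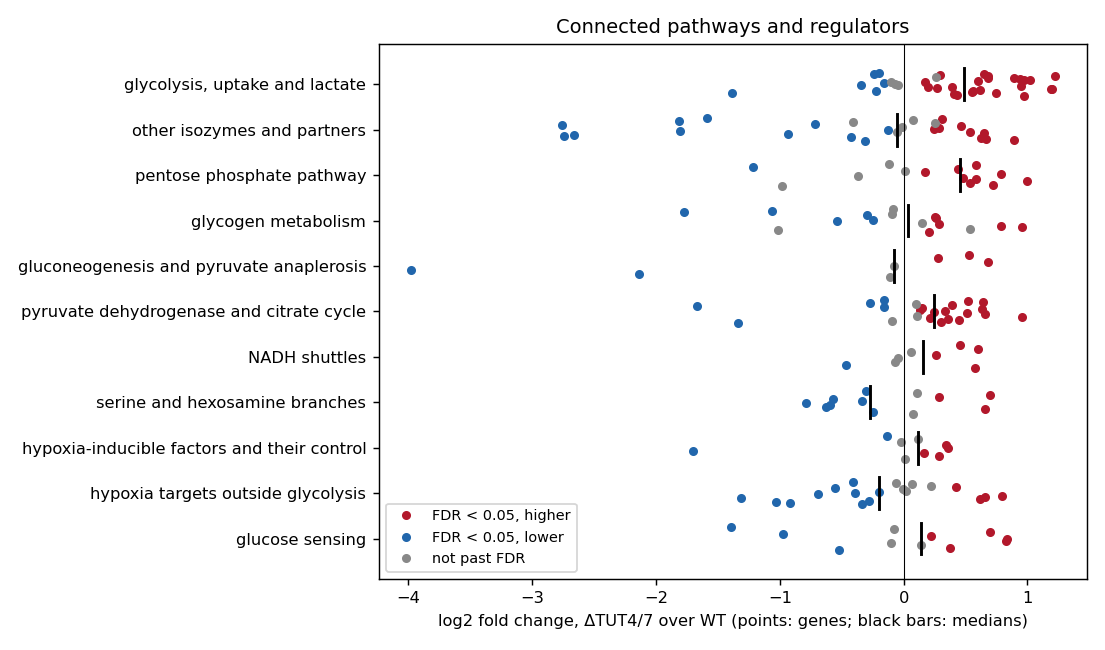
Log2 fold change of each tested gene (points, coloured by the call) in the members and in 10 connected lists, with black bars for medians. Glycolysis and the pentose phosphate pathway have medians of 0.49 and 0.46, and the serine and hexosamine branches and the hypoxia targets outside glycolysis lie at −0.28 and −0.20.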

How the data were processed

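Total RNA of 3 WT and 3 ΔTUT4/7 HEK 293T cultures, called biological replicates in the labels, was sequenced as paired-end libraries after ribosomal RNA depletion. The authors aligned reads to hg38 with STAR 2.7.3a, annotated them with Ensembl release 102 and quantified genes in Partek Flow 10.0.22 with its expectation-maximisation model. The deposited values are estimated counts per gene, of which 45.2% to 50.0% per library were not whole numbers. They were rounded here. A deposited table of the authors' own group comparison (p-values, false discovery rates, ratios, fold changes and group means) was not used.

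Genes with a largest count above 12, the limit in the study's methods, were tested (23952 of 30270, the rest holding 0.0960% of counts) with edgeR 4.0.16 in R 4.3.3, using TMM factors and a robust quasi-likelihood fit on group alone. Adjusted p-values are Benjamini-Hochberg over all tested genes, and calls use 0.05. The study's cut-off of 2-fold is given separately. CPM are relative to TMM-scaled library sizes, and levels between genes were compared per kilobase of the GENCODE 44 canonical transcript. In simulated data with 200 genes changed 2-fold, 96% were recovered and 0.0632% of unchanged genes were called. Those 200 genes had mean counts of at least 50 and were split evenly between rises and falls. In the real data 57.7% of genes were called, so the simulation does not test scaling or false calls under such wide change. Alternatives used limma 3.58.1 and DESeq2 1.42.0. Between-library chi-squares per degree of freedom were at least 2.43, so no library was a copy of another. Library totals set the counting precision, which p-values share with the spread between cultures.

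The members, gene lists and tests were chosen with earlier results of these data known. Values in every library are printed for members called at 2-fold or more, for the member with the highest level per kilobase of each role and for GAPDH. From each other list the 2 genes with the smallest p are named, and any called at 2-fold or more up to 4 in all. Pseudogenes are named above 5% of the parent's count. Strand-aware counting is not given in the sources used here. Promoter windows come from RefSeq.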

Additional observations from a re-analysis of the deposited data

How the results depend on the processing

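Over 19 alternatives to the main setting, the members called higher numbered 21 to 24 and those called lower 5 to 8, except that a test against a 1.5-fold minimum called 13 members, 12 higher and 1 lower. In the connected lists that test called 12 genes higher and 21 lower, against 62 and 47. With library size as the only scaling, the median of all genes moved from −0.02 to −0.13 and gave 21 members higher and 8 lower. Limma on log2(CPM + 1) called 2 members 2-fold higher and 0 lower, and a mean count of 50 or more left out SLC16A3, so 0 were called 2-fold lower. Among called members, 12 of those called higher and SLC16A3, in the 17 alternatives that tested it, kept their calls in every alternative. The calls of PFKL, BPGM, MPC2 and ALDOC were lost in 7, 9, 10 and 8 alternatives. Among these, PFKL was lost without the first ΔTUT4/7 library, BPGM and MPC2 without the first or the second library of either group, and ALDOC without any library but the third of ΔTUT4/7. PFKFB2, not called in the main setting, was called lower in 3 alternatives, with library size alone at −0.16, and turned to 0.0554 with the GC content and length offset, and the cause was not tested. MPC1, also not called, was called lower in 4 alternatives. The median of member minus neighbours was 0.47 with the 10 nearest genes and 0.33 with all within 5 Mb. SLC2A3 to SLC2A1 ranged from −0.0765 to 0.0947 when each library was left out, turning to −0.0765 without WT replicate 1 and −0.0116 without ΔTUT4/7 replicate 3.

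The labels number the replicates 1 to 3 in both groups. Deviations of same-numbered libraries correlated at 0.0659, 0.0125 and −0.0424, and those of differently numbered libraries at −0.127 to 0.107. These few values cannot show whether same-numbered cultures were prepared together, which the labels do not state. With the replicate number as a block, 29 members were called, 23 higher and 6 lower, and BPGM lost its call. Over all genes the block called 6832 higher and 6844 lower, against 6855 and 6958. Depth limits SLC16A3 and ENO3, at mean counts of 43.3 and 79.8.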
